A study of Mus musculus with 6 samples.

Results

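Isg15, Usp18, Ifit1, Ifit2, Ifit3, Ifit3b, Rsad2 and Cmpk2 are genes that cells switch on when they sense interferon, and their mRNA levels are described here in macrophages of mouse tumors. They were chosen by name from a list of 10 core interferon-stimulated genes. Of these, 8 had a row of that name in the count table of 22377 genes, and all 8 were among the 13884 genes tested. The other 2, Mx1 and Mx2, were not analysed here.

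RNA was sequenced in 6 libraries, 3 labelled wt (wt1, wt2 and wt3) and 3 labelled knockdown (ko1, ko2 and ko3), each labelled as a separate biosample. A legend of the study gives fewer mice per group than the labels give biosamples, and this was not reconciled here, so the p-values measure the spread between these libraries, which may be technical. According to the methods of the study, macrophages positive for CD45, CD11b and F4/80 were sorted from subcutaneous tumors of the LLC line, a Lewis lung carcinoma of the mouse, 2 weeks after implantation into male and female mice of 6 to 8 weeks of age. The hosts were Npm1+/+ or Npm1+/- mice, in which 1 copy of the gene for the nucleolar protein NPM1 is missing in every host cell, tumor cells excepted. The labels give tumor tissue as the source, TRIzol extraction and a library protocol for small RNA, give no genotype, age or strain, and were not reconciled with the methods here. The question behind the comparison was which transcripts of tumor macrophages differ when Npm1 is reduced.

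Type I interferons bind a receptor of IFNAR1 and IFNAR2 chains, whose kinases JAK1 and TYK2 activate transcription factors inside the cell. These bind an interferon-stimulated response element in the promoters of their target genes. The proteins made then block viral RNA and protein synthesis, and some of them, USP18 above all, damp the signal again. In tumors, type I interferon made by myeloid cells is known to help dendritic cells to prime T cells.

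Promoter windows from RefSeq, on the build GRCm38.p6, run from 250 bases before to 50 bases after the start of a gene. They are shown because the members are grouped by a shared response element. A window was on hand for 7 of the 8 genes, and none for Usp18. A simple form of the response element, 2 copies of GAAA separated by 2 bases, was searched on both strands, where it reads as 2 copies of TTTC on the other strand. It was found in the windows of Isg15, Rsad2, Ifit3, Ifit3b and Ifit1, which are 5 of these 7 genes, and in 3.443% of the 32851 windows of all genes. The stretches around the matches follow, on the strand of the gene, with the copies in capitals.
Isg15: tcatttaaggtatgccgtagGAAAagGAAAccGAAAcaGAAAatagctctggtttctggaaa
Rsad2: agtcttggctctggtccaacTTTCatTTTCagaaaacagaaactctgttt
Ifit3: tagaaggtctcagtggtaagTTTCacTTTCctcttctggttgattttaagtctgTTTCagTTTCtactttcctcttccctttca
Ifit3b: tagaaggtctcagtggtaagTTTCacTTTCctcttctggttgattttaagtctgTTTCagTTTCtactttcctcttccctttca
Ifit1: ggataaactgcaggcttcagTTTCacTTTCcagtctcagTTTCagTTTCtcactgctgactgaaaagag
The stretch of Isg15 lies at chr4:156200855-156200916 on the minus strand, 98 to 37 bases before the start, and holds 3 matches that overlap in a run of 4 copies. The stretch of Rsad2 lies at chr12:26456543-26456592 on the minus strand, 140 to 91 bases before the start, and holds 1 match. On the plus strand, Ifit3 has its stretch at chr19:34583353-34583436, 176 to 93 bases before the start, and Ifit3b has its own at chr19:34607749-34607832, 208 to 125 bases before the start. Both hold 2 matches and are identical in 84 of 84 bases. The stretch of Ifit1, at chr19:34640765-34640833 on the plus strand, also holds 2 matches. The windows of Cmpk2 and Ifit2 do not hold these letters. The motif TTCNNNGAA, the letters of a gamma-activated site, was found in 8.298% of all windows and among the members in that of Ifit2 only, 241 to 233 bases before the start. A match describes letters and does not show that a factor binds there.

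The members differed widely in abundance. Compared per length, as FPKM (counts scaled by transcript length and library total), Isg15 had the highest mean level over the 6 libraries, 120 FPKM (SD 28.0), and Rsad2 came next with 69.7 FPKM (SD 19.3). Isg15 was above Rsad2 in 6 of 6 libraries, although their ranges over libraries overlapped. Ifit1 followed with 14.3 FPKM (SD 3.50), and its range lay below that of Rsad2 but overlapped that of Cmpk2, which it exceeded in 5 of 6 libraries. Cmpk2 at 10.4 FPKM, Usp18 at 10.1 FPKM, Ifit2 at 9.50 FPKM and Ifit3 at 9.25 FPKM had overlapping ranges and cannot be put in order. Ifit3b had the lowest mean level, 1.53 FPKM (SD 0.261), with a range below that of Ifit3. Together the 8 genes took 0.0368% to 0.0655% of all counts of a library.

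The mRNA of all 8 members had a negative log2 fold change in the libraries labelled knockdown, with a median of -0.33, while the median over all genes tested was 0.02 and 47.9% of the genes had a negative value. The size of the difference was small for most members, and it was largest for Usp18, with a ratio of 0.562. By edgeR's quasi-likelihood test, 0 of 8 members passed an adjusted p of 0.05, as did 0% of all genes, among which the smallest adjusted p was 0.328. At an unadjusted p under 0.05, 2 members were lower, Usp18 and Cmpk2, and none were higher, beside 8.31% of all genes lower and 6.9% higher. The same 2 members had groups that did not overlap in TMM-scaled counts, both lower, beside 12.6% of all genes lower and 13.3% higher. By DESeq2, another count test, 0 members were called, and 36 of 22376 genes were. Since 3 libraries were set against 3, an exact permutation test of a single gene cannot go below p = 0.1.

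**Figure D1:**
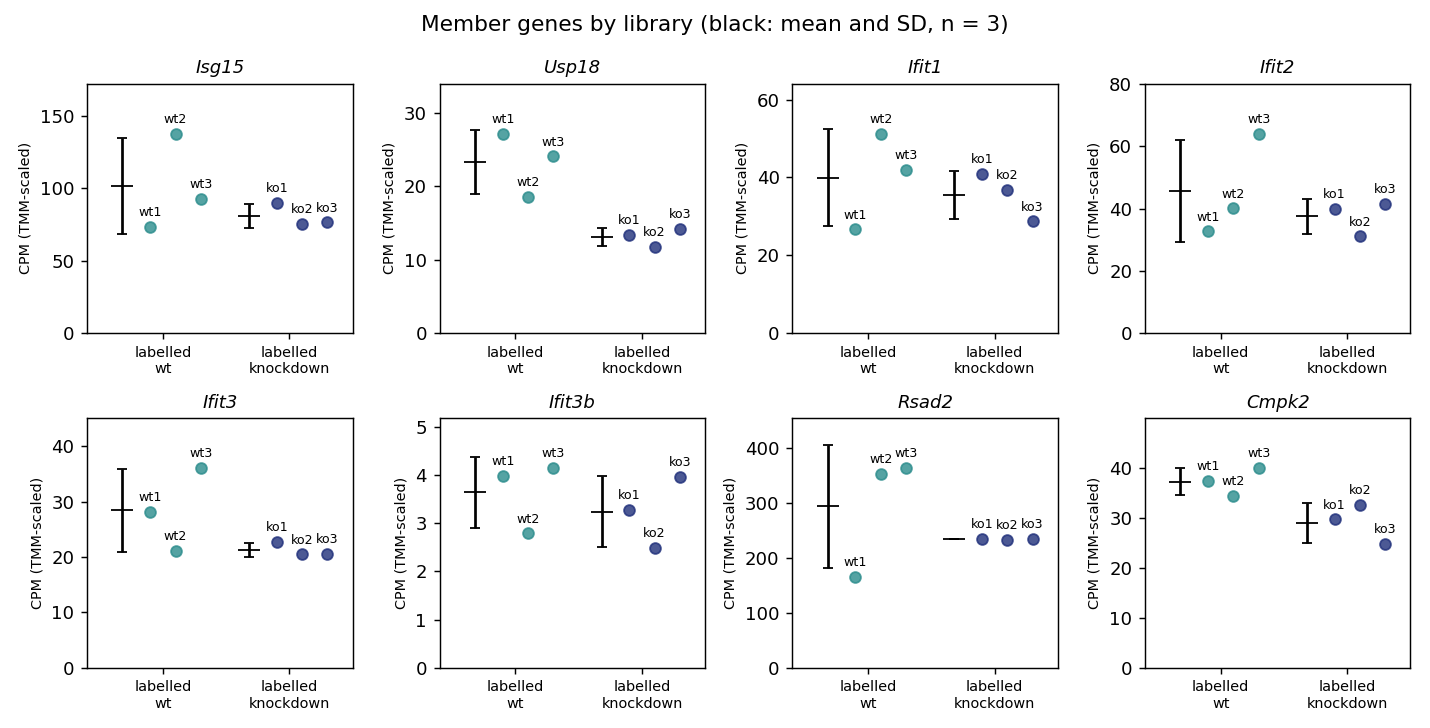
Level of each member in CPM (TMM-scaled counts, vertical axis from 0) in the 3 libraries labelled wt (teal) and the 3 labelled knockdown (navy), with the mean and SD of each group in black. Usp18 and Cmpk2 have groups that do not overlap, and in Isg15, Ifit1 and Rsad2 the lowest point of all 6 is wt1.

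Isg15 and Usp18 act on the same reaction. Isg15 encodes a ubiquitin-like protein that is coupled to other proteins, and Usp18 encodes the protease that removes it and that also blocks the type I interferon receptor. Usp18 (chr6:121245906-121270917, plus strand, GRCm38) was at 27.2, 18.5 and 24.0 CPM (counts divided by the library total after TMM scaling) in wt1, wt2 and wt3 and at 13.3, 11.7 and 14.2 CPM in ko1, ko2 and ko3. The lowest library labelled wt lay above the highest labelled knockdown, so the groups did not overlap. The mean was 23.2 ± 4.36 CPM (SD, n = 3) in the libraries labelled wt and 13.1 ± 1.26 CPM (SD, n = 3) in those labelled knockdown. The log2 fold change was -0.83 (SE 0.18, 95% interval -1.26 to -0.40), which stands for the ratio given above. Usp18 ranked 42 of all genes by its p (edgeR's quasi-likelihood test, unadjusted p = 0.00232, adjusted p = 0.328), and the exact permutation p was 0.1. DESeq2 gave an adjusted p of 0.0583. A gene on the other strand, Gm44148, overlaps Usp18 and shares 1.615% of its 100-base words, and whether the counting used strand is not given in the sources used here.

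Isg15 (chr4:156199424-156200818, minus strand) was at 73.4, 138 and 92.8 CPM in wt1, wt2 and wt3 and at 90.1, 75.6 and 76.5 CPM in ko1, ko2 and ko3. Here wt1 was the lowest of all libraries and wt2 the highest, and the groups overlapped. Isg15 had a log2 fold change of -0.33 (SE 0.23, 95% interval -0.86 to 0.20), with an adjusted p of 0.426 by edgeR's quasi-likelihood test, and without wt2 it was -0.05. So the modifier and its protease had the same sign, but wt1, the lowest library for Isg15, was the highest for Usp18. Over the 6 libraries their log2 levels had a Pearson r of 0.12, given as a description, since both values come from the same libraries.

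The IFIT genes encode proteins with tetratricopeptide repeats that bind viral RNA or hinder its translation, and they lie in a cluster on chromosome 19, all on the plus strand, with Ifit1bl1 and Ifit1bl2 among them. Ifit2 starts the row (chr19:34550694-34576419), and Ifit3 (chr19:34583531-34588731), Ifit3b (chr19:34607970-34613401) and Ifit1 (chr19:34640871-34650009) follow. Ifit1, which binds RNA that lacks a host cap, was at 26.7, 51.3 and 41.9 CPM in wt1, wt2 and wt3 and at 40.9, 36.9 and 28.7 CPM in ko1, ko2 and ko3. Library wt1 was again the lowest and the groups overlapped. Its log2 fold change was -0.17 (SE 0.25, 95% interval -0.76 to 0.41), with an adjusted p of 0.701 by edgeR's quasi-likelihood test, and on the log2 FPKM scale and without wt2 its sign turned.

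Ifit2 was at 32.6, 40.1 and 64.1 CPM in wt1, wt2 and wt3 and at 39.9, 31.0 and 41.5 CPM in ko1, ko2 and ko3. A single library, wt3, lay above all others, and the remaining 5 overlapped. Ifit2 had a log2 fold change of -0.28 (SE 0.26, 95% interval -0.88 to 0.31), with an adjusted p of 0.525 by edgeR's quasi-likelihood test, and without wt3 it was 0.03.

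Ifit3, whose protein binds that of Ifit1 in humans, was at 28.2, 21.1 and 36.0 CPM in wt1, wt2 and wt3 and at 22.7, 20.5 and 20.6 CPM in ko1, ko2 and ko3. Of the libraries labelled wt, wt2 fell among those labelled knockdown, and wt1 and wt3 lay above them. The log2 fold change was -0.42 (SE 0.20, 95% interval -0.90 to 0.06), the second most negative of the members, with an adjusted p of 0.339 by edgeR's quasi-likelihood test, and without wt3 it was -0.23. Ifit3b, its near copy, was at 3.99, 2.79 and 4.14 CPM in wt1, wt2 and wt3 and at 3.28, 2.48 and 3.97 CPM in ko1, ko2 and ko3. In both genes wt2 was the lowest library labelled wt and wt3 the highest, and in Ifit3b the groups overlapped throughout. The log2 fold change of Ifit3b was -0.17 (SE 0.30, 95% interval -0.87 to 0.53), with an adjusted p of 0.754 by edgeR's quasi-likelihood test. The transcripts of this pair are identical at 98.0% of 1697 aligned bases, and 31.7% of the 100-base words of Ifit3 occur in Ifit3b, so how reads were split between them is uncertain. Of the 2 further IFIT paralogs, Ifit1bl1 had a log2 fold change of -0.35 (SE 0.21) and Ifit1bl2 one of -0.98 (SE 0.37), neither with an adjusted p under 0.05 by edgeR's quasi-likelihood test. Ifit1 shares 3.285% of its words with Ifit1bl2.

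Rsad2, which encodes viperin, and Cmpk2, which encodes a mitochondrial nucleotide kinase, are neighbours on chromosome 12 that point away from each other. Rsad2 lies at chr12:26442746-26456452 on the minus strand and Cmpk2 at chr12:26469204-26479837 on the plus strand, 12751 bases apart with no gene between them. Viperin makes a modified cytidine nucleotide that ends viral RNA chains, and CMPK2 can supply its substrate. Rsad2 was at 165, 353 and 363 CPM in wt1, wt2 and wt3 and at 234.8, 233 and 235 CPM in ko1, ko2 and ko3. On this scale the libraries labelled knockdown were nearly equal, with a highest to lowest ratio of 1.007. Those labelled wt lay on both sides of them with a ratio of 2.202. As FPKM, ko1, ko2 and ko3 were less alike, at 65.1, 70.7 and 60.1. Rsad2 had a log2 fold change of -0.33 (SE 0.28, 95% interval -0.97 to 0.32), with an adjusted p of 0.502 by edgeR's quasi-likelihood test. This value moved with every wt library that was left out, to -0.62 without wt1, -0.18 without wt2 and -0.16 without wt3.

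Cmpk2 was at 37.3, 34.4 and 39.9 CPM in wt1, wt2 and wt3 and at 29.7, 32.5 and 24.7 CPM in ko1, ko2 and ko3. On this scale every library labelled wt was above every library labelled knockdown, by a narrow margin between wt2 and ko2. As FPKM, ko2 at 11.7 lay above wt1 at 10.9 and wt2 at 10.1, so the groups overlapped. The log2 fold change was -0.36 (SE 0.15, 95% interval -0.70 to -0.02), with an unadjusted p of 0.0417 and an adjusted p of 0.328 by edgeR's quasi-likelihood test, and the exact permutation p was 0.1. Library wt1 was the lowest of the 6 for Rsad2 but not for Cmpk2, and the neighbours had a Pearson r of 0.24 over the 6 libraries.

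**Figure D2:**
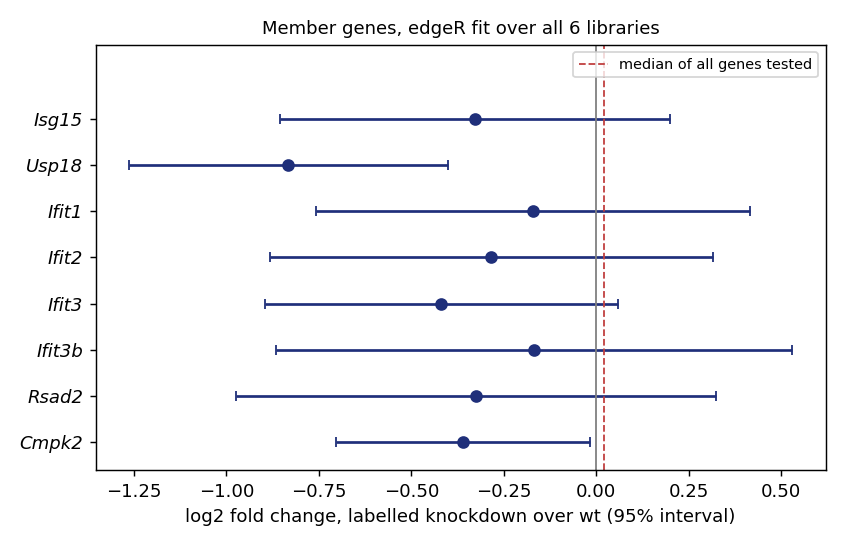
Log2 fold change of each member, labelled knockdown over labelled wt (horizontal axis), as points with 95% intervals from edgeR on all 6 libraries. The red dashed line is the median of all genes tested, 0.02. All 8 points lie below 0, and the intervals of Usp18 and Cmpk2 alone do not reach it.

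Across libraries, 6 of the members fell into 2 patterns, which were sorted after their values were seen. Isg15, Ifit1 and Rsad2 were lowest in wt1 of all 6 libraries, and wt1 had 0.637, 0.572 and 0.460 of the level of the other libraries of its label in these genes. Their log2 levels had pairwise Pearson r of 0.76 to 0.86 over 6 libraries. Usp18, Ifit3 and Cmpk2, in contrast, had 1.276, 0.987 and 1.004 of that level in wt1 and pairwise r of 0.73 to 0.79. Between the patterns, the r ranged from -0.14 for Ifit1 and Usp18 to 0.28 for Ifit1 and Cmpk2. Ifit2 and Ifit3b were placed in neither pattern. Ifit2 had 0.627 of that level in wt1, with r of 0.72 with Rsad2 and 0.66 with Ifit3. Ifit3b had 1.152 of it, with r from -0.51 with Ifit1 to 0.66 with Ifit3. The r within a pattern come from the values it was sorted by. Library wt1 was the lowest for 37.5% of the members, beside 33.5% of all genes. All genes of a library share its depth and composition, and these r are descriptions over 6 points.

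Library wt1 also stood apart over all genes. It was at -108.5 on a first principal component that held 67.99% of the variance, on which the other 5 libraries lay between -4.54 and 52.0, and 17.19% of genes were over 2-fold from the rest of its group, against 14.04% in wt2 and 9.53% in wt3. It was the lowest of the 6 libraries for 33.5% of all genes and the highest for 33% of them. Npm1 itself, the gene that the label concerns, was at 142, 380 and 381 CPM in wt1, wt2 and wt3 and at 441, 499 and 343 CPM in ko1, ko2 and ko3, so its mRNA was not lower in the libraries labelled knockdown (log2 fold change 0.51, SE 0.36, adjusted p = 0.436 by edgeR's quasi-likelihood test). Without wt1 the log2 fold change of Npm1 was 0.16. Ccrl2, the chemokine receptor-like gene at the center of the study, had a log2 fold change of -0.86 (SE 0.26, adjusted p = 0.328 by edgeR's quasi-likelihood test on all 6 libraries). The directions given here are therefore between labels. Total counts were 36550775 to 38147320 a library.

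Without wt1, edgeR put 4 members at an unadjusted p under 0.05, Isg15, Usp18, Rsad2 and Cmpk2, beside 12.2% of all genes in either direction, and the median log2 fold change of the members was -0.45. Rsad2 then had a log2 fold change of -0.62 with an unadjusted p of 0.000898, but 0 members passed the adjusted threshold and its adjusted p was 0.406 (edgeR's quasi-likelihood test). Library wt1 was the lowest of all libraries for Isg15 and Rsad2. Leaving it out therefore raises their mean in the libraries labelled wt, here and in the setting that follows. A setting without wt1 and ko3 was included because an earlier analysis of these data had singled out the other 4 libraries. In it, edgeR put Rsad2 at -0.62 (adjusted p = 0.101) and Usp18 at -0.77 (adjusted p = 0.110), with 4 members and 23.2% of all genes at an unadjusted p under 0.05. On the same 4 libraries DESeq2 called 2 members, Rsad2 at -0.65 (adjusted p = 0.00169) and Usp18 at -0.81 (adjusted p = 0.0116). It called 1284 of the 21760 genes that it gave a p, and put 4 members and 14.3% of those genes at an unadjusted p under 0.05. Among the genes called was Ccrl2, with a log2 fold change of -1.27 (adjusted p = 1.5e-06 by DESeq2). By DESeq2 on all libraries, the adjusted p of Ccrl2 was 0.123. The 2 members were called by DESeq2 on the 4 libraries and by no other alternative. Usp18 had an unadjusted p under 0.05 in 16 of 17 alternatives, scaling to macrophage markers being the exception, and Rsad2 in 3 of 17, each of them without wt1. For Cmpk2 this held in 6 of 17 alternatives.

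**Figure D3:**
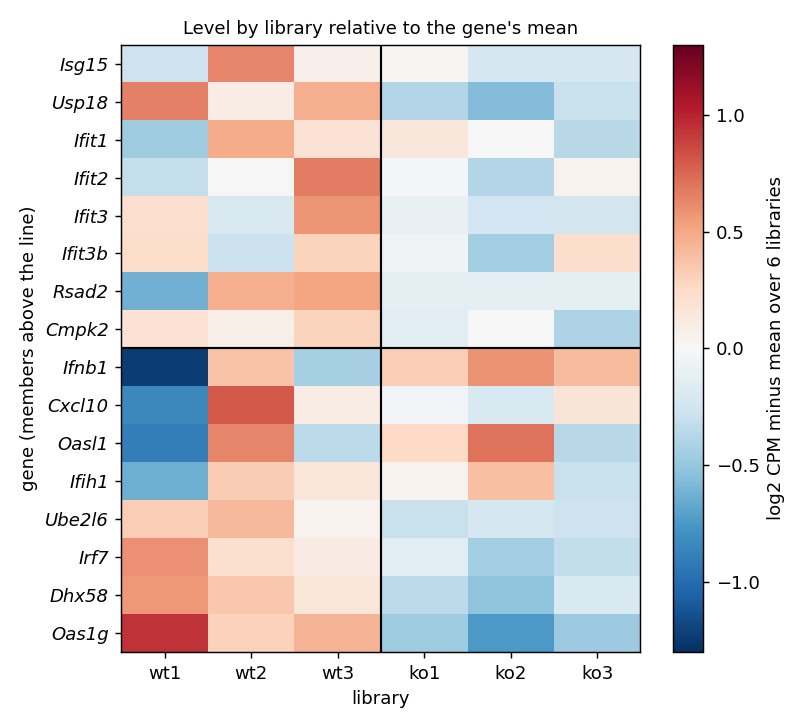
Log2 CPM of each gene minus its mean over the 6 libraries (color scale, red above and blue below the mean), for the 8 members above the black line and 8 further interferon-pathway genes under it, which were picked for display after their values were seen. In column wt1, Isg15, Ifit1, Rsad2, Ifnb1, Cxcl10, Oasl1 and Ifih1 are below their mean, while Usp18, Ube2l6, Irf7, Dhx58 and Oas1g are above it.

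In the pathway that acts on the members, wt1 was likewise the lowest library for some genes and the highest for others. Among the interferons, Ifnb1, the early type I interferon, was at 9.22, 28.1 and 16.1 CPM in wt1, wt2 and wt3 and at 27.1, 32.6 and 28.8 CPM in ko1, ko2 and ko3. It was lowest in wt1, and its log2 fold change of 0.73 (SE 0.36) had the opposite sign to the members (adjusted p = 0.341 by edgeR's quasi-likelihood test). Ifng, which T cells and NK cells make, was at 1.10, 1.04 and 4.41 CPM in wt1, wt2 and wt3 and at 6.74, 19.2 and 3.58 CPM in ko1, ko2 and ko3 (log2 fold change 2.17, SE 0.78, adjusted p = 0.328 by edgeR's quasi-likelihood test). The Ifna genes with a row had no more than 5 counts in any library and were not tested.

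Among the 5 interferon receptor genes, 5 had a negative log2 fold change and 1 an unadjusted p under 0.05, Ifngr2 at -0.48 (SE 0.16). Over all genes tested, 8.31% were lower and 6.9% higher at that level, which also holds beside the lists that follow. Ifnar1 had -0.21 (SE 0.16) and Ifnar2 had -0.26 (SE 0.14). Downstream of the receptors, Stat3 had a log2 fold change of -0.44 (SE 0.16), Jak1 -0.12 (SE 0.11) and Jak2, with the other sign, 0.30 (SE 0.15). No adjusted p of these genes was under 0.05 by edgeR's quasi-likelihood test.

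Of the 6 interferon regulatory factors, 4 were lower and 1 was higher at an unadjusted p under 0.05, with a median of -0.58. Irf7, which amplifies type I interferon, was at 178, 136 and 127 CPM in wt1, wt2 and wt3 and at 107, 86.9 and 94.6 CPM in ko1, ko2 and ko3, a log2 fold change of -0.61 (SE 0.16) with no overlap. Irf1, a factor that acts early and downstream of interferon gamma, went the other way. It was at 300.1, 286.5 and 226 CPM in wt1, wt2 and wt3 and at 394, 412 and 375 CPM in ko1, ko2 and ko3, a log2 fold change of 0.54 (SE 0.14), also without overlap. Irf5 had -0.62 (SE 0.26) and Irf8 had -0.39 (SE 0.19), and neither they nor the others had an adjusted p under 0.05 by edgeR's quasi-likelihood test.

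Of 13 nucleic acid sensors and adaptors, 5 were lower at an unadjusted p under 0.05 and none were higher, with a median of -0.38. Dhx58, which encodes the RIG-I-like protein LGP2, was at 57.9, 49.7 and 43.5 CPM in wt1, wt2 and wt3 and at 30.6, 27.2 and 34.1 CPM in ko1, ko2 and ko3, a log2 fold change of -0.72 (SE 0.15). Ifih1, the gene for the RNA sensor MDA5, had 0.07 (SE 0.27) and was lowest in wt1. Tlr7 had -0.38 (SE 0.17), Myd88 -0.42 (SE 0.19) and Tbk1 0.18 (SE 0.16).

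The 4 enzymes that couple ISG15 to proteins all had negative log2 fold changes, and 1 had an unadjusted p under 0.05. Ube2l6, the conjugating enzyme, was at 54.7, 58.4 and 45.1 CPM in wt1, wt2 and wt3 and at 35.7, 37.3 and 36.2 CPM in ko1, ko2 and ko3, which do not overlap (log2 fold change -0.53, SE 0.13). Uba7, the activating enzyme, had -0.48 (SE 0.21), Herc6, the main ligase in the mouse, had -0.14 (SE 0.18), and Trim25 had -0.17 (SE 0.19). In this pathway, the conjugating enzyme Ube2l6 and the protease Usp18 had groups without overlap, as did 25.9% of all genes tested. The groups of Uba7, Herc6, Trim25 and the modifier Isg15 overlapped. Of 5 tested negative regulators of interferon signaling 1 was lower at an unadjusted p under 0.05, Ptpn6 at -0.94 (SE 0.29), and the median was 0.18. Socs1 had 0.53 (SE 0.24), Socs3 -0.41 (SE 0.23), Ptpn2 0.18 (SE 0.12) and Pias1 0.22 (SE 0.11), and no adjusted p of the sensors, the enzymes or the regulators was under 0.05 by edgeR's quasi-likelihood test.

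Among 31 other genes induced by type I interferon, 14 were lower and 0 higher at an unadjusted p under 0.05, beside 8.31% and 6.9% of all genes. Groups did not overlap in 17 of them, all lower, beside 12.6% of all genes lower. The median log2 fold change of the list was -0.30, close to that of the members. Oas1g, an oligoadenylate synthetase, was at 26.6, 17.1 and 18.9 CPM in wt1, wt2 and wt3 and at 10.1, 8.24 and 9.96 CPM in ko1, ko2 and ko3, a log2 fold change of -1.15 (SE 0.21). Ifitm3, which hinders virus entry and had the highest level of the list, had -0.50 (SE 0.20), and Ifi27l2a had -0.54 (SE 0.19). Oasl1, in contrast, had 0.33 (SE 0.41) and was at 77.0 CPM in wt1, below the other 5 libraries. Library wt1 was the lowest of 6 for 9 of the 31 genes and the highest for 12 of them, beside 33.5% and 33% of all genes. Of 16 tested genes induced by interferon gamma, 6 were lower and 0 higher at an unadjusted p under 0.05 with a median of -0.33, among them Gbp2, which encodes a guanylate-binding protein, at -0.67 (SE 0.20) and Tap1, a peptide transporter, at -0.41 (SE 0.12). Cxcl10, a chemokine for T cells, was at 267, 826 and 509 CPM in wt1, wt2 and wt3 and at 465, 416 and 533 CPM in ko1, ko2 and ko3, a log2 fold change of -0.18 (SE 0.36) with wt1 the lowest. The adjusted p of these genes was 0.328 or more by edgeR's quasi-likelihood test.

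**Figure D4:**
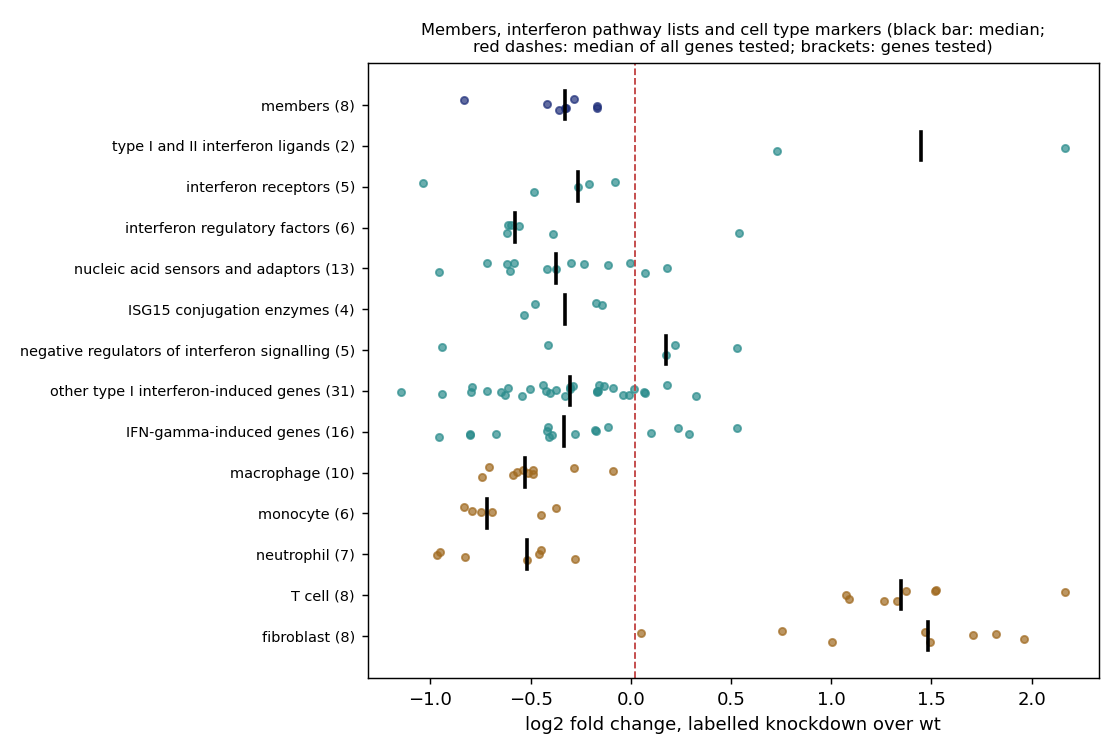
Log2 fold change, labelled knockdown over labelled wt (horizontal axis), of each tested gene of the members (navy), the interferon pathway lists (teal) and cell type marker lists (brown), with a black bar at each median and the number of genes tested in brackets. The members, at a median of -0.33, lie among the lists of interferon-induced genes, the macrophage list lies at -0.53 and the T cell and fibroblast lists lie at 1.35 and 1.48.

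Markers of some cell types differed in level between the labels, although no marker passed an adjusted p of 0.05 by edgeR's quasi-likelihood test. The defining macrophage markers were present in every library, and the 10 of them summed to 16310 to 21540 CPM in the libraries labelled wt and to 9675 to 16190 CPM in those labelled knockdown. All 10 had negative log2 fold changes, with a median of -0.53, which is lower than the median of the members. Among the genes used for the sort, Ptprc (CD45) had -0.09 (SE 0.19), Itgam (CD11b) had -0.49 (SE 0.22) and Adgre1 (F4/80) had -0.49 (SE 0.24). The 6 monocyte markers had a median of -0.72 and 7 tested neutrophil markers one of -0.52. At an unadjusted p under 0.05 by edgeR, 5 of 10 macrophage, 4 of 6 monocyte and 3 of 7 neutrophil markers were lower. In these lists 0 were higher, beside 8.31% of all genes lower and 6.9% higher. Groups did not overlap in 6, 3 and 3 of them, all lower, beside 12.6% of all genes lower. An excess of lower genes was thus not particular to the interferon-induced lists. Conversely, 8 T cell markers summed to 32.0 to 111 CPM in libraries labelled wt and to 89.2 to 259 CPM in those labelled knockdown, with a median of 1.35, and this list also holds Ifng. The 8 fibroblast markers summed to 22.7 to 471 CPM and to 342 to 682 CPM, with a median of 1.48. Of the T cell markers 5 of 8, and of the fibroblast markers 3 of 8, were higher at an unadjusted p under 0.05 by edgeR, and 0 were lower. The sums of the T cell and fibroblast lists overlapped between labels. Those of the macrophage list did not, by a narrow margin between wt3 at 16310 CPM and ko3 at 16190 CPM. Lyz2 was the largest single part of these sums, and its own groups overlapped, with ko3 at 9698 CPM and wt3 at 9354 CPM. The monocyte sums (wt from 5090 CPM, knockdown up to 4632 CPM) and neutrophil sums (wt from 1806 CPM, knockdown up to 1581 CPM) did not overlap either. Markers of plasmacytoid dendritic cells, which make much type I interferon, had a median of 0.15 over 5 genes, and their defining marker Siglech was at 0.716 CPM or less. The medians were 0.99 for NK cells, -0.03 for conventional dendritic cells, 0.000455 for B cells, -0.33 for endothelial cells and 0.76 for epithelial or carcinoma cells. The part of these cell types in the levels of the members was not tested, and in bulk RNA fewer cells of a type and less RNA per cell cannot be told apart.

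When each library was scaled to its macrophage markers, an alternative added after the data were seen, the median of all genes moved by 0.54 on the log2 scale. The median of the members was then 0.21, and 7 of 8 members turned positive, from 0.12 for Ifit3 to 0.38 for Ifit1. Usp18 kept a negative value, -0.30, with an adjusted p of 0.390 by edgeR's quasi-likelihood test. Relative to the median of all genes the members were lower by nearly the same amount as before, -0.36 against -0.35. The shift applies to every gene, so these signs follow from it and from the size of each member's difference.

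**Figure D5:**
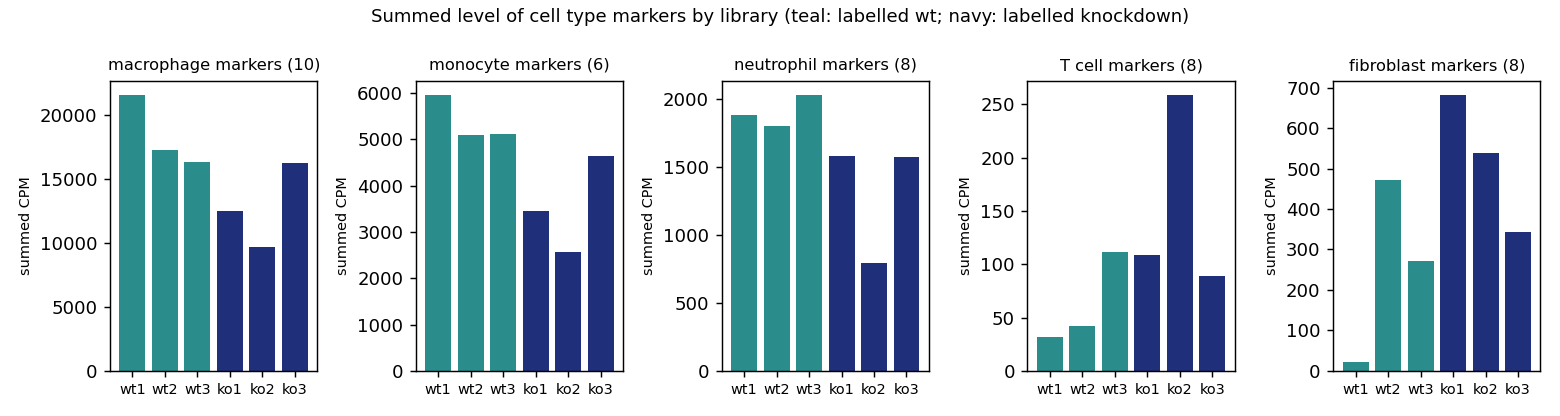
Summed CPM of the marker lists of macrophages, monocytes, neutrophils, T cells and fibroblasts (vertical axes from 0, one scale per panel; brackets give the number of genes with a row) in each library, teal for labelled wt and navy for labelled knockdown. Macrophage markers are highest in wt1 at 21540 CPM and lowest in ko2 at 9675 CPM, and fibroblast markers are lowest in wt1 at 22.7 CPM.

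The genes whose levels over the 6 libraries were most like the mean log2 level of the members were Zbtb4 (Pearson r 0.99), Anpep (0.97), Gm53858 (0.97), Gm38922 (0.96) and Frrs1 (0.96). These r were the highest among all genes tested that are not members, over 6 points. Gm53858 was at only 0.119 to 0.561 CPM, so its r rests on few counts. Anpep, which encodes a membrane aminopeptidase of myeloid cells, was at 26.0, 29.3 and 32.8 CPM in wt1, wt2 and wt3 and at 23.0, 19.6 and 22.5 CPM in ko1, ko2 and ko3. Each member was also set against the mean of the other 7. Ifit2 had the highest r, 0.75, and Ifit3b the lowest, 0.22.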

How the data were processed

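RNA sequencing of 6 libraries was analysed, 3 labelled wt and 3 labelled knockdown, grouped by the treatment label. The authors deposited raw counts for each gene and, beside them, FPKM, found here to be those counts scaled by a fixed gene length and the total of the library. The build per the labels is mm10. The aligner, counter and annotation are not given in the sources used here. The labels give replicates as separate biosamples, while a legend of the study gives fewer mice per group. Libraries of a label differed beyond counting noise (chi-square per gene 31.5 to 140.6), which does not show whether they come from separate mice.

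Counts were tested with edgeR 4.0.16 in R 4.3.3 (filterByExpr, TMM, glmQLFit, glmQLFTest, Benjamini-Hochberg adjustment over 13884 genes, threshold 0.05). CPM are TMM-scaled, and 2 was the prior count for log2 CPM. An SE was taken as the size of the log2 fold change over the root of its F value. FPKM served for levels between genes. A count of 0 allows up to 3 counts, 0.0716 to 0.0846 CPM, by counting error only. Scripts were tested on simulated data. Deviations from the group mean were not alike between libraries of the same replicate number (correlations -0.241, 0.0605 and -0.337). With 3 libraries a group, these values do not settle whether the libraries were paired.

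Alternatives were RLE and upper quartile scaling, DESeq2 1.42.0, limma 3.58.1 on log2 FPKM (pseudocount 1 or 0.1), other filters (none, or 10 counts in every library), the replicate block, libraries left out, and scaling to macrophage markers, the last added after the data were seen. Coordinates are from GENCODE on GRCm38 and promoters from RefSeq.

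The members and the lists were chosen with earlier results of these data known. Genes named are the members, in each pathway list the 4 of highest mean CPM and those of smallest p in each direction, the 5 most like the members, Npm1, Stat3 and Ccrl2, and the sorting markers. Any other gene was named after its values were seen. Mx1, Mx2 and the promoter of Usp18 were not analysed here, and some genes of the lists are not reported here.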

Additional observations from a re-analysis of the deposited data

How the results depend on the processing

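No member passed the adjusted threshold under any alternative except DESeq2 on the 4 libraries without wt1 and ko3. That setting called 2 members and 1284 of 21760 genes, and DESeq2 on all libraries called 36 of 22376 genes. The count of members at an unadjusted p under 0.05, 2 in all 6 libraries, was 1 with upper quartile scaling, with limma on log2 FPKM at either pseudocount (1 or 0.1), with at least 10 counts in every library and with the replicate block (median -0.263), 0 with scaling to macrophage markers, and 4 by DESeq2 on 4 libraries. It was 1 to 4 with libraries left out. Of all genes tested in a setting, 15.2% had an unadjusted p under 0.05 in the main one. This share was 15.1% with upper quartile scaling, 11.6% with the replicate block and 16.4% with the filter of 10 counts. For limma it was 20% at pseudocount 1 and 18.7% at 0.1. Macrophage scaling gave 34.9%, DESeq2 on 4 libraries 14.3%, and edgeR with libraries left out 4.75% to 23.2%. The number of genes at that level was 669 to 3290 with libraries left out (fewest without ko2, then 775 without ko1) and 4847 with macrophage scaling. Members without overlap numbered 1 with either limma setting and with macrophage scaling, and 2 to 6 with libraries left out. Over all genes, groups did not overlap in 25.9% with all libraries, 25.4% with either limma setting, 36.5% with macrophage scaling, 31.5% without wt1 (5 members), 43.5% without wt2 (4 members) and 57.7% without wt1 and ko3 (6 members). The median of the members, -0.327 in all libraries and -0.454 to -0.195 with 1 library left out, was -0.112 on log2 FPKM plus 1, -0.112 on log2 FPKM plus 0.1 and 0.208 with macrophage scaling. Ifit1 turned to 0.0113 and 0.0138 on log2 FPKM plus 1 and plus 0.1 and to 0.0457 without wt2, and Ifit2 to 0.0282 without wt3. With libraries left out, the lowest edgeR value was -0.396 for Ifit1 and -0.560 for Ifit2. Macrophage scaling turned Ifit1 to 0.384, Ifit2 to 0.215, Ifit3 to 0.123, Ifit3b to 0.327, Isg15 to 0.202, Rsad2 to 0.198, Cmpk2 to 0.213 and Stat3 to 0.110. The block changed no call at the adjusted threshold. It was fitted although whether the replicate numbers pair the libraries was not settled. The cause of these changes was not tested, beyond the smaller number of libraries where some were left out. With 3 libraries a group, no exact test can go below 0.1.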
